A study of Gallus gallus with 2 samples.

Results

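Histone and protein methylation enzymes were followed by their reads in 2 RNA-seq libraries, 1 from chicken cells after interference with LSD1 (shLSD1) and 1 from untreated cells (Blank). Members were the rows of the count table whose gene symbol starts with KDM, KMT, MLL, SETD, SMYD, PRMT, EHMT, SUV39, SUV420, JMJD or NSD followed by a digit or H, together with EZH1, EZH2, EED, SUZ12, DOT1L, ASH1L, ASH2L, WDR5, RBBP5 and UTY where these are listed. The letters matched 52 names, and NSDHL, a sterol dehydrogenase that only shares the letters, was left out, which left 51 members of 26656 rows. Both libraries were labelled as SSCs, the spermatogonial stem cells of the testis, isolated from embryos of eggs incubated for 18.5 days and made into libraries from 1 µg of total RNA. The shLSD1 cells carried an interference vector and the Blank cells carried none, so the effect of the vector itself cannot be told apart from that of the interference. With 1 library per group there is no replicate check, and each interval below covers counting error between these libraries only.

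Methylation of lysines on the tails of histones H3 and H4 is set by methyltransferases, most of which carry a SET domain, and is removed by flavin-dependent demethylases such as LSD1 or by demethylases with a JmjC domain. Methylation of H3K4 marks promoters and enhancers, that of H3K36 and H3K79 marks transcribed genes, and that of H3K9 and H3K27 marks repressed chromatin. LSD1, whose gene symbol is KDM1A, takes methyl groups from mono- and dimethylated H3K4, and other members modify arginines or proteins that are not histones.

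The reads assigned to genes summed to 8245826 in shLSD1 and 8731455 in Blank. A count of 0 allows up to 3 reads, or 0.364 CPM in shLSD1 and 0.344 CPM in Blank. Markers fixed for the labelled cell type were uneven. ZBTB16, a factor of spermatogonial stem cells, had the most reads, with 279 in shLSD1 and 219 in Blank. Per length NANOS3 was higher, at 12.9 FPKM in shLSD1 and 9.75 in Blank. ZBTB16 had 5.74 FPKM in shLSD1 and 4.25 in Blank. DDX4, a germ cell helicase, had 11 reads in shLSD1 and 23 in Blank, and DAZL had 5 in shLSD1 and 8 in Blank. NANOG had none in either library, against 115 reads in shLSD1 and 92 in Blank for NANOS3. Whether transcript models from the authors' assembly overlap these marker rows was not checked, so low counts may not give the level of the gene. LUM, a gene of connective tissue, had 4710 reads in shLSD1 and 6098 in Blank. In bulk RNA, fewer cells of a type and less RNA per cell cannot be told apart.

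The first result concerns where the reads of these enzymes were placed. Of the 51 members, 20 had at least 20 reads over both libraries, 12 had 1 to 19 reads and 19 were at 0 in both. KDM1A (ENSGALG00000000840, chromosome 23, bases 1686690 to 1716555, minus strand, in the coordinates of the files, whose build the sources used here do not give), the target of the interference, was among those at 0. The model assembled over the same bases was at 0 as well, so these tables give no check of the interference at its target. The other members at 0 were the H3K4 methyltransferases SETD1B and SETD7, the COMPASS subunits RBBP5 and WDR5, the demethylases KDM5B, KDM3A, KDM4A and KDM8, the PRC2 catalytic subunit EZH2, the arginine methyltransferases PRMT7, PRMT8 and PRMT9, and SMYD2, SMYD3, SETD5, SETD9, JMJD4 and JMJD8.

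Every one of the 19 members at 0 was overlapped on its strand by a model from the authors' transcript assembly. The assembly lists 9548 such models as rows of their own. All 12 members with 1 to 19 reads lay under such a model as well. Among all members with such a model, 19 of 36 were at 0, or 52.8% (Wilson 95% interval 37 to 68), and among members without one, 0 of 15 (upper limit 20.4%). The same split ran through the other protein-coding genes, with 62% of 6807 at 0 where a model overlapped and 14.2% of 8650 where none did. Counted over all protein-coding genes, members included, these shares were 61.9% and 14.2%. The interval of the members with a model holds the share of the other genes with one. The zeros among these enzymes were thus not particular to them, and a row at 0 under a model does not give the level of the gene. Some members at 0 also overlapped rows on the opposite strand, and the kit used does not mark strand. In shLSD1 and Blank such rows held 1402 and 1477 reads at SMYD2 and 1280 and 1289 at JMJD8. They held 338 and 425 at PRMT7, 119 and 106 at SETD9, and 31 and 53 at EZH2. Their part in the zeros was not tested.

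A model was taken as matched to a member where it lay on the same strand and the deposited description named a domain of that member's family, a rule that was chosen after the data had been seen. By this rule 31 members had a matched model. Of the 19 members at 0, 9 had a matched model with at least 20 reads, 5 had one with 1 to 19 reads, and KDM1A and JMJD4 had one that was itself at 0. The remaining 3 had only a model of another kind. The model over RBBP5 carries a protein kinase domain and had 636 reads in shLSD1 and 657 in Blank, the one over SETD9 also carries a kinase domain and had 331 in shLSD1 and 302 in Blank, and the one over JMJD8 had none.

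The largest matched models held the bulk of the counted reads at their genes. Reads on bases shared by a gene row and its model may be counted in neither, which was not tested. NSD1, which methylates H3K36, had 10 reads in shLSD1 and 9 in Blank in its gene row, against 1601 in shLSD1 and 1390 in Blank in its matched model. KDM5B, an H3K4 demethylase, had none in its gene row and 1099 reads in shLSD1 and 1169 in Blank in the model. Together, gene row and matched model reached at least 20 reads for 38 members, 18 more than the gene rows alone. EZH2 had few counted reads in both places, with 2 in shLSD1 and 1 in Blank in its model. The model of its paralog EZH1 had 474 in shLSD1 and 514 in Blank. The EZH2 row lies wholly within its model and is close to it in length, 7104 against 7264 bases. Few counted reads in both rows therefore do not show that EZH2 was lower than EZH1. Matched models of DOT1L, KDM3B, KDM5B, SETD7 and SMYD3 also overlapped another annotated gene on the strand, whose own rows held at most 2 reads in either library. Rows under a model do not give the level of their gene, so reads of the overlapped genes cannot be told apart in these models.

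**Figure D1:**
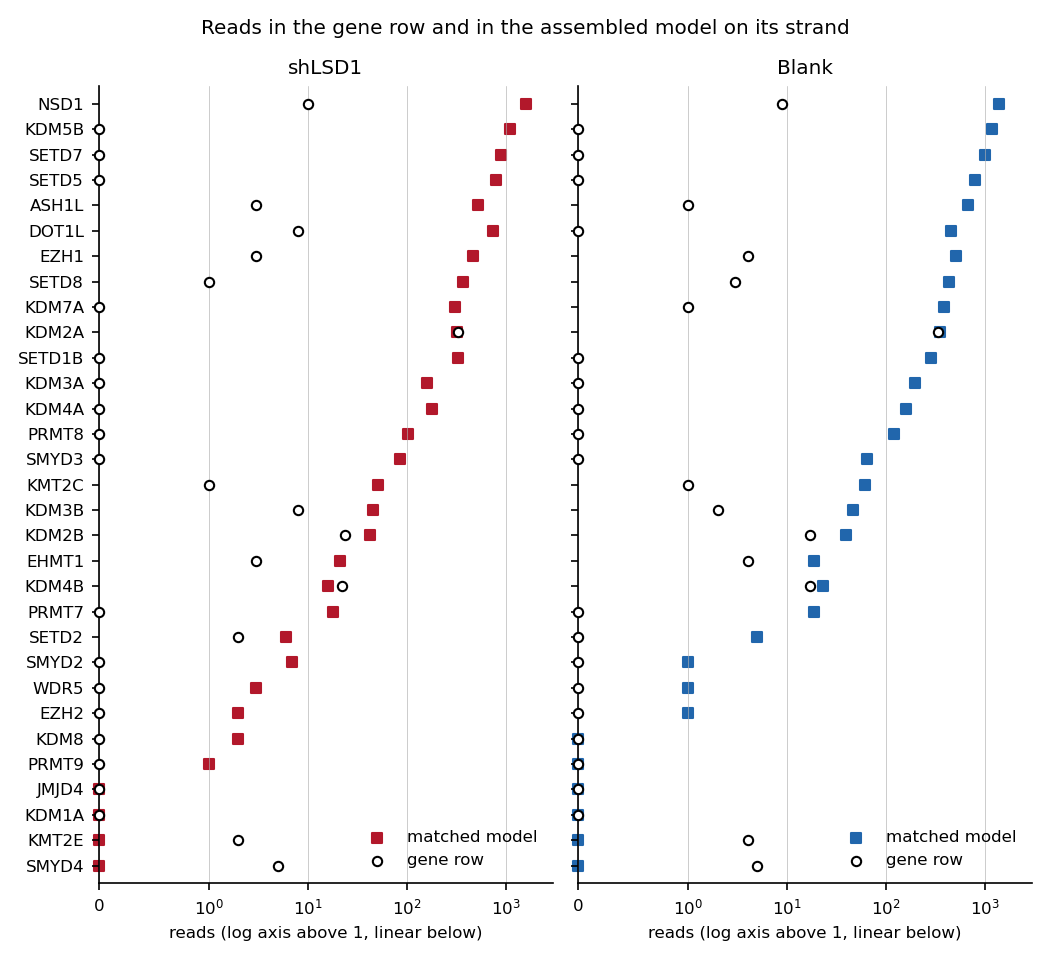
Reads (log axis above 1, linear from 0 to 1) in the gene row (open circles) and in the matched assembled model (filled squares) of the 31 members with a matched model, shLSD1 left and Blank right. For members such as NSD1, KDM5B, SETD7 and SETD5 the model holds nearly all of the counted reads and the gene row 10 or fewer. KDM1A and JMJD4 sit at 0 in both places in both libraries.

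Levels were compared per length, as FPKM, for the 20 members with at least 20 reads in their gene row. Their median was 9.34 FPKM in shLSD1 and 9.26 in Blank, beside 8.37 in shLSD1 and 8.48 in Blank over 5920 annotated genes passing the same minimum. ASH2L, a core subunit of the H3K4 methyltransferase complexes, was the most abundant, at 48.2 FPKM in shLSD1 and 52.4 in Blank. The gene row of KDM4B, an H3K9 demethylase, was the lowest, at 0.428 FPKM in shLSD1 and 0.312 in Blank. It lies under a matched model with 0.319 FPKM in shLSD1 and 0.433 in Blank, so the row does not give the level of the gene. A same-strand model also overlaps KMT2A, KDM2A, KDM2B and SUV39H1, which makes 5 of the 20 rows. SMYD5, KDM5A, SMYD1 and EED followed ASH2L in shLSD1, and KDM5A, SMYD5, SMYD1 and EED followed it in Blank. Counting intervals of neighbours in this order overlapped for 14 of 19 pairs in shLSD1 and 12 of 19 in Blank, so most of the order is not resolved at this depth.

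**Figure D2:**
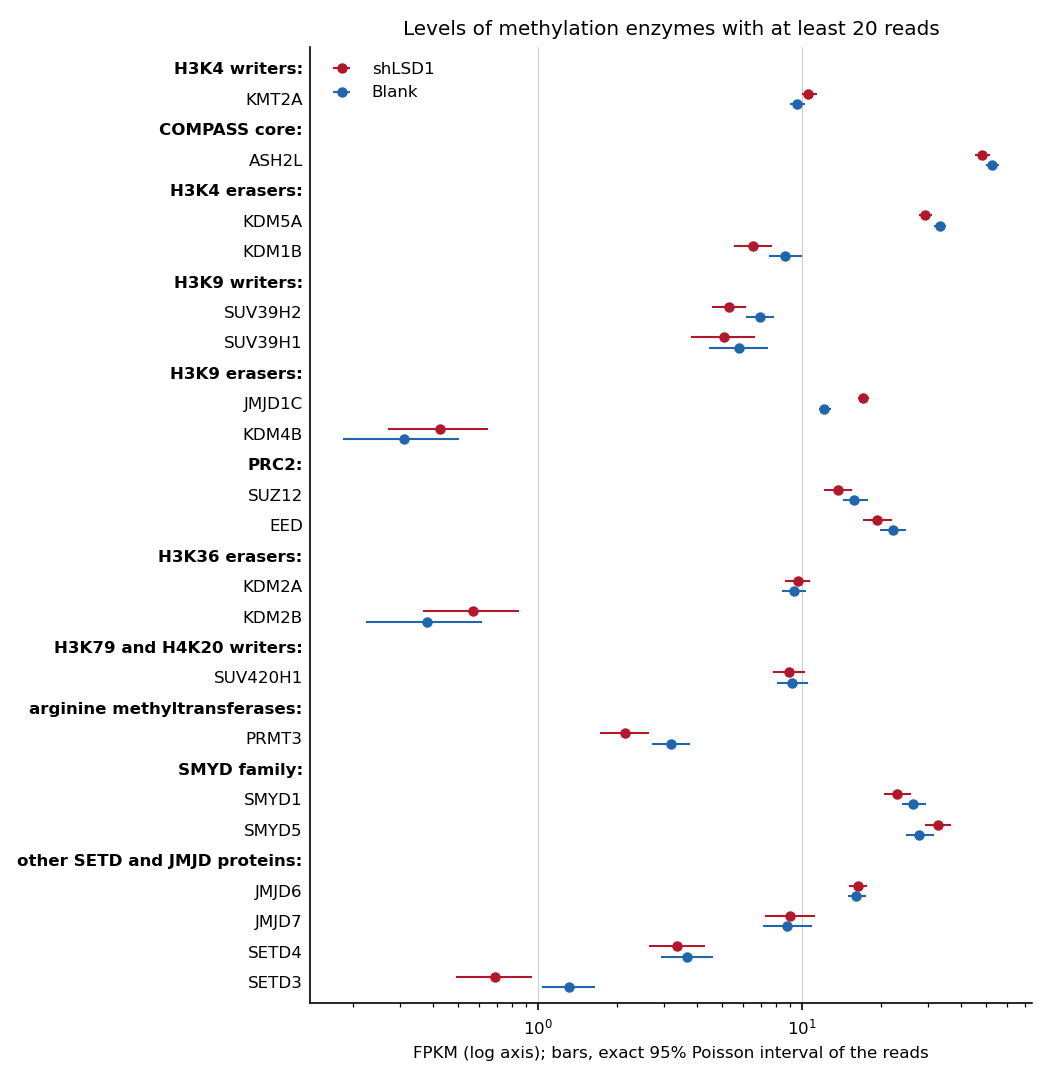
FPKM (log axis) of the 20 members with at least 20 reads, by role group, with shLSD1 in red above Blank in blue; bars are exact Poisson 95% intervals of the reads in 1 library. Counting only gene rows, ASH2L lies at the top of the range in both libraries and KDM4B and KDM2B, which have matched models, below 1 FPKM. The intervals of the libraries are apart for KDM5A, JMJD1C, PRMT3 and SETD3.

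Ratios of shLSD1 to Blank were small for most members. Over the 20 members with at least 20 reads the log2 ratio ranged from -0.93 to 0.57 with a median of -0.13, beside a median of -0.011 over all 12081 rows with as many reads. None was at least 1.5-fold higher in shLSD1, where 7.04% of all rows were, and 1 (SETD3) was at least 1.5-fold lower, where 6.38% were. The exact interval lay above 0 for 2 members, JMJD1C and KMT2A, beside 12.9% of all rows. With DESeq2's size factors, for which the share of all rows was not computed, it lay above 0 for JMJD1C alone. With the library totals it lay below 0 for 5 members, KDM5A, KDM1B, SUV39H2, PRMT3 and SETD3, beside 15.4% of all rows. For the other 13 it included 0. At a minimum of 100 reads 18 members remained, with 0 at least 1.5-fold higher and 1 lower (2.6% and 2.49% of 8277 rows), and with 2 intervals above and 5 below 0 (15.7% and 19.8%).

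Among writers of H3K4 methylation, KMT2A, the founding member of the mixed-lineage leukaemia family, had 961 reads in shLSD1 and 922 in Blank. Its level was 10.6 FPKM in shLSD1 and 9.59 in Blank, a log2 ratio of 0.14 (0.01 to 0.27), which with DESeq2's size factors was 0.13 with an interval that includes 0. KMT2E, a family member with little or no catalytic activity, had 2 reads in shLSD1 and 4 in Blank, and KMT2C, which acts on enhancers, had 1 in each. Both rows lie under a matched model, so these counts do not give the level of the gene. Rows on the opposite strand of KMT2E had 62 reads in each library. SETD1B, which trimethylates H3K4 at promoters, was at 0 in its gene row, and its matched model rose to 332 reads in shLSD1, against 283 in Blank (log2 ratio 0.31, 0.08 to 0.55). The model of SETD7, a lysine methyltransferase with many protein substrates, had 895 reads in shLSD1 and 1014 in Blank (log2 ratio -0.097), and that of KMT2C had 51 in shLSD1 and 61 in Blank. ASH2L had 972 reads in shLSD1 and 1122 in Blank, a log2 ratio of -0.12 (-0.25 to 0.00071). A row on the opposite strand of ASH2L had 29 reads in shLSD1 and 45 in Blank.

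Both erasers of H3K4 methylation with at least 20 reads in their gene row fell. KDM5A, a JmjC demethylase of trimethylated H3K4, fell to 1237 reads in shLSD1, against 1485 in Blank (29.4 FPKM in shLSD1 and 33.3 in Blank, log2 ratio -0.18, -0.29 to -0.071). KDM1B, the paralog of LSD1 also known as LSD2, fell to 140 reads in shLSD1, against 197 in Blank (6.53 FPKM in shLSD1 and 8.67 in Blank, log2 ratio -0.41, -0.73 to -0.09). A row on the opposite strand of KDM1B had 16 reads in shLSD1 and 14 in Blank, and the kit used does not mark strand. The model of KDM5B stood level, with 1099 reads in shLSD1 and 1169 in Blank (log2 ratio -0.0065, -0.13 to 0.11). Set against KDM5A, KDM5B was 1.13 times as high in shLSD1 as in Blank (exact 95% interval 1.01 to 1.26), a ratio that does not depend on the scaling of the libraries.

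Summed over gene rows, the H3K4 writers had 964 reads in shLSD1 and 927 in Blank, and the H3K4 erasers had 1377 in shLSD1 and 1682 in Blank. The odds ratio of writers to erasers was 1.27 (1.13 to 1.43), and with matched models added it was 1.13 (1.04 to 1.22). Writers alone had a log2 ratio of 0.14 (0.0074 to 0.27), which with the models was 0.055 (-0.03 to 0.14). For the erasers it was -0.21 (-0.31 to -0.10) without and -0.12 (-0.20 to -0.043) with the models. In the gene rows KMT2A made up nearly all reads of the writers and KDM5A most of those of the erasers. With the models, SETD7 and KDM5B added sums close to theirs.

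Among H3K9 members, the summed writers fell, mostly through SUV39H2, and the summed erasers rose, through JMJD1C. SUV39H2, a methyltransferase that trimethylates H3K9 in heterochromatin, fell to 187 reads in shLSD1, against 259 in Blank (log2 ratio -0.39, -0.67 to -0.11). It overlaps a row on the opposite strand that had 78 reads in shLSD1 and 101 in Blank, and reads of the overlapping part cannot be told apart. SUV39H1, its paralog, had 52 reads in shLSD1 and 63 in Blank (log2 ratio -0.19, -0.75 to 0.36). The odds ratio of SUV39H2 to SUV39H1 was 0.875 (0.568 to 1.35), so no difference between the paralogs was detectable at this depth. EHMT1, which dimethylates H3K9 in euchromatin, had 3 reads in shLSD1 and 4 in Blank, and its matched model had 21 in shLSD1 and 19 in Blank.

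JMJD1C (ENSGALG00000002942, chromosome 6, bases 7269405 to 7419505, plus strand), a JmjC protein of the KDM3 family that is needed to keep germ cells in the mouse testis, rose to 1634 reads in shLSD1, against 1235 in Blank. This was 17.1 FPKM in shLSD1 and 12.2 in Blank, a log2 ratio of 0.49 (0.38 to 0.59). Among the 20 members it stood at rank 6 in shLSD1 and rank 8 in Blank. The rank in shLSD1 is not resolved, as the interval overlaps those of EED and JMJD6. No model overlapped JMJD1C on its strand. KDM4B had 22 reads in shLSD1 and 17 in Blank (log2 ratio 0.45, -0.53 to 1.46), too few to place. The matched model of KDM7A, a demethylase of H3K9 and H3K27, fell to 308 reads in shLSD1, against 391 in Blank (log2 ratio -0.26, -0.48 to -0.043). Models of KDM3A, with 160 reads in shLSD1 and 198 in Blank, and of KDM4A, with 179 in shLSD1 and 160 in Blank, had intervals that include 0 (log2 ratios -0.22 and 0.24), as did that of KDM3B with 46 in shLSD1 and 47 in Blank. Of the KDM3 family, the interval of KDM3A (-0.53 to 0.083) lay below that of JMJD1C, and the interval of KDM3B (-0.57 to 0.67) overlapped it.

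As sums, the H3K9 writers had 242 reads in shLSD1 and 326 in Blank (log2 ratio -0.35, -0.59 to -0.10) and the H3K9 erasers 1664 in shLSD1 and 1255 in Blank (0.49, 0.38 to 0.60). The odds ratio of writers to erasers was 0.56 (0.465 to 0.674), and 0.666 (0.559 to 0.793) with matched models. With the models the erasers had 2373 reads in shLSD1 and 2074 in Blank (0.28, 0.19 to 0.36). Of the 242 writer reads in shLSD1, 187 were those of SUV39H2. SETDB2, an H3K9 methyltransferase whose symbol lies outside the rule, is not in the writer sum, nor are genes without a symbol. SETDB2 had 269 reads in shLSD1 and 294 in Blank (-0.045, -0.29 to 0.20). Within the gene rows, 1634 of the 1664 eraser reads in shLSD1 were those of JMJD1C. Without it, the other 5 erasers had 30 reads in shLSD1 and 20 in Blank (0.66, -0.20 to 1.56), and with their models 739 in shLSD1 and 839 in Blank (-0.10, -0.25 to 0.044).

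In the gene rows of PRC2, the complex that methylates H3K27, only the non-catalytic subunits had at least 20 reads. The matched model of EZH1, a catalytic subunit, had 474 reads in shLSD1 and 514 in Blank (12 FPKM in shLSD1 and 12.3 in Blank). SUZ12 had 264 reads in shLSD1 and 325 in Blank (13.7 FPKM in shLSD1 and 15.8 in Blank, log2 ratio -0.22, -0.46 to 0.021). EED, which binds the finished mark, had 251 reads in shLSD1 and 305 in Blank (19.3 FPKM in shLSD1 and 22.1 in Blank, log2 ratio -0.20, -0.45 to 0.047). Each interval alone includes 0, and the sum of the complex, 518 reads in shLSD1 and 634 in Blank, lay at -0.21 (-0.38 to -0.039). With the EZH1 model, which itself stood at -0.034 (-0.22 to 0.15), the sum was -0.13 (-0.25 to -0.0028). The H3K27 demethylases KDM6A, KDM6B and UTY were not analysed here, and KDM7A, which also acts on H3K27, is given with the H3K9 erasers.

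Writers of H3K36 methylation were nearly absent from the gene rows, with 15 reads in shLSD1 and 10 in Blank over NSD1, ASH1L and SETD2 together. WHSC1 and WHSC1L1, the NSD family paralogs of NSD1, have symbols outside the rule and are not in the group sums. The model over WHSC1 had 577 reads in shLSD1 and 651 in Blank. The model over WHSC1L1 had 438 in shLSD1 and 538 in Blank, so the group sum depends on which symbols are counted. In the matched models NSD1 rose to 1601 reads in shLSD1, against 1390 in Blank (11.7 FPKM in shLSD1 and 9.57 in Blank, log2 ratio 0.29, 0.18 to 0.39). ASH1L, also an H3K36 writer, fell to 533 reads in shLSD1, against 674 in Blank (5.44 FPKM in shLSD1 and 6.48 in Blank, log2 ratio -0.26, -0.42 to -0.09). SETD2, which trimethylates H3K36 behind RNA polymerase, had 6 reads in shLSD1 and 5 in Blank in its model. Of the erasers, KDM2A, a CpG-island binding demethylase, had 328 reads in shLSD1 and 336 in Blank (log2 ratio 0.048, -0.18 to 0.27) and KDM2B, its paralog, 24 in shLSD1 and 17 in Blank (0.57, -0.38 to 1.57). The odds ratio of KDM2B to KDM2A was 1.45 (0.729 to 2.92), and that of H3K36 writers to erasers was 1.5 (0.622 to 3.8), or 1.08 (0.955 to 1.22) with matched models. Neither was resolved.

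DOT1L, the methyltransferase of H3K79, which has no SET domain, had the largest ratio among matched models with at least 20 reads. Its gene row had 8 reads in shLSD1 and 0 in Blank, and its matched model rose to 742 reads in shLSD1, against 460 in Blank (5.66 FPKM in shLSD1 and 3.31 in Blank, log2 ratio 0.77, 0.60 to 0.94). The model covers 96% of the gene and also overlaps another annotated gene on the strand, so its reads may not all be those of DOT1L. DOT1L lies on chromosome 28 from base 1978406 to base 2033934 on the minus strand. SUV420H1, which methylates H4K20, had 198 reads in shLSD1 and 216 in Blank (log2 ratio -0.043, -0.33 to 0.24), and the model of SETD8, the H4K20 monomethyltransferase, had 370 in shLSD1 and 430 in Blank (-0.13). Over this group the gene rows alone gave a log2 ratio of 0.0014 (-0.28 to 0.28). With matched models it was 0.33 (0.22 to 0.45), carried by the model matched to DOT1L.

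The matched models as a set did not stand far from other models. Of 21 with at least 20 reads, 1 (DOT1L) was at least 1.5-fold higher in shLSD1 and none was lower, beside 6.74% and 6.74% of 6161 assembled models. Intervals lay above 0 for 3 (DOT1L, NSD1 and SETD1B) and below 0 for 2 (ASH1L and KDM7A), beside 11.3% and 14.6%. Their median log2 ratio was -0.0065, against -0.014 over all assembled models.

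**Figure D3:**
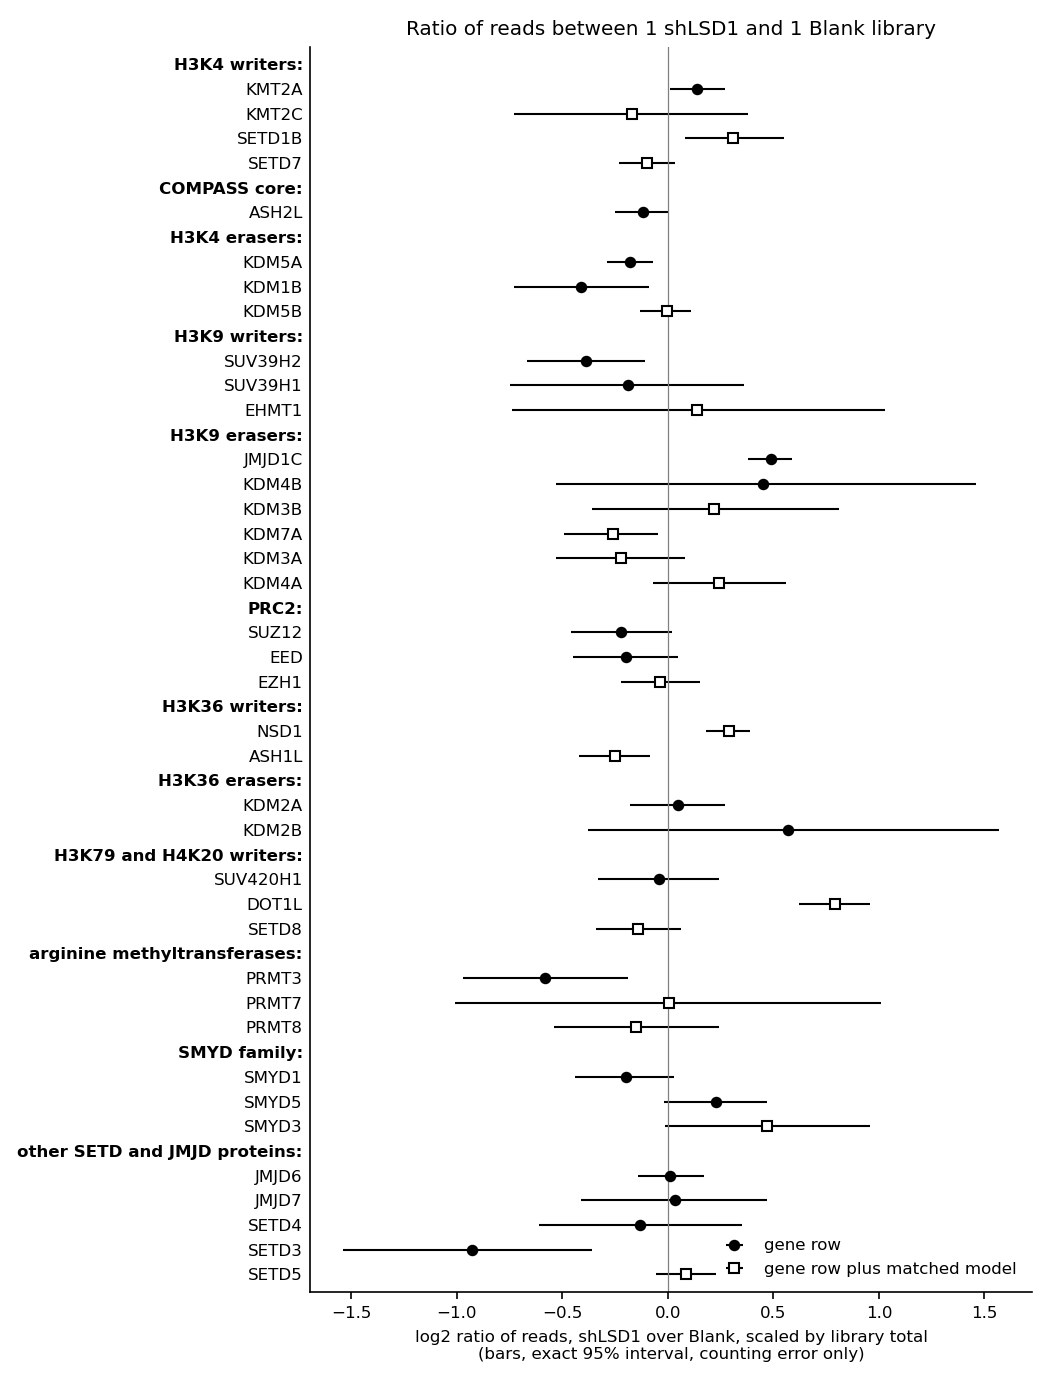
Log2 ratio of reads, shLSD1 over Blank and scaled by library totals, with exact 95% intervals, for members with at least 20 reads in the gene row (filled circles) and for members that reach 20 reads only with their matched model (open squares, gene row plus model). JMJD1C and DOT1L lie farthest above 0 with intervals clear of it, and SETD3, PRMT3, KDM1B and SUV39H2 below.

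Enzymes with substrates other than the classic histone lysines held the largest fall. SETD3 (ENSGALG00000011134, chromosome 5, bases 47783078 to 47906765, minus strand), which methylates a histidine of actin, fell to 38 reads in shLSD1, against 77 in Blank, the only one of the 20 gene rows with at least 20 reads past 1.5-fold (0.688 FPKM in shLSD1 and 1.31 in Blank, log2 ratio -0.93, -1.54 to -0.36). PRMT3, an arginine methyltransferase of ribosomal protein RPS2, fell to 91 reads in shLSD1, against 144 in Blank (2.14 FPKM in shLSD1 and 3.19 in Blank, log2 ratio -0.58, -0.97 to -0.19). It was the only arginine methyltransferase with reads in its gene row, and the model of PRMT8 had 103 reads in shLSD1 and 121 in Blank. The gene rows of SETD3 and PRMT3 are low, below 4 FPKM in either library.

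In the SMYD family, SMYD1, a methyltransferase of heart and skeletal muscle, was high at 23.0 FPKM in shLSD1 and 26.4 in Blank, from 283 reads in shLSD1 and 345 in Blank (log2 ratio -0.20, -0.44 to 0.028). Of 13 listed muscle genes, chosen after its level was seen, 3 had at least 20 reads. TNNC1 had 9.9 FPKM in shLSD1 and 11.1 in Blank, MYL2 had 9.13 in shLSD1 and 8.47 in Blank, and DES, which smooth muscle also expresses, had 65 in shLSD1 and 50.7 in Blank. ACTA1 had no reads in either library, and the other 9 had between 0 and 8 in each. The sum of the list, mostly DES, was 866 reads in shLSD1 and 739 in Blank (log2 ratio 0.31, 0.17 to 0.45), and its part in the SMYD1 values was not tested. SMYD5 had 297 reads in shLSD1 and 269 in Blank (32.7 FPKM in shLSD1 and 27.9 in Blank, log2 ratio 0.23, -0.017 to 0.47). The model of SMYD3 had 85 in shLSD1 and 65 in Blank (0.47, -0.013 to 0.96). SMYD4 had 5 in each library, in a row that lies under a matched model at 0. The family sum was level at a log2 ratio of 0.0011 (-0.16 to 0.17).

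Of the remaining JmjC and SET proteins, JMJD6, which hydroxylates lysines of splicing factors, had 662 reads in shLSD1 and 695 in Blank (log2 ratio 0.012, -0.14 to 0.17). JMJD7, a lysyl hydroxylase, had 88 in shLSD1 and 91 in Blank (0.034, -0.41 to 0.47). SETD4 had 70 in shLSD1 and 81 in Blank (-0.13, -0.61 to 0.35), and the model of SETD5 had 796 in shLSD1 and 794 in Blank (0.086, -0.057 to 0.23). All of these intervals include 0, and for JMJD6 the bounds exclude a difference as large as that of JMJD1C.

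**Figure D4:**
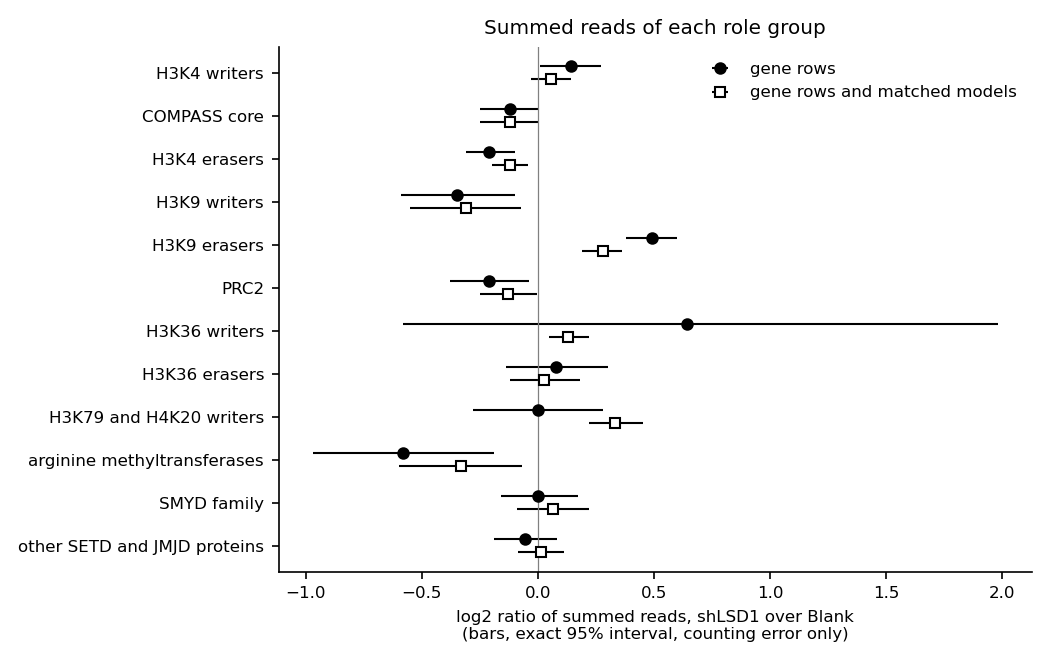
Log2 ratio of summed reads, shLSD1 over Blank, for 12 role groups of members, with exact 95% intervals, for gene rows (filled circles, above) and for gene rows with matched models (open squares, below). H3K9 erasers lie above 0, by the reads of JMJD1C. H3K4 erasers, H3K9 writers (without SETDB2), PRC2 and arginine methyltransferases lie below 0 in both versions. The gene-row sum of the arginine methyltransferases is PRMT3 alone, and the intervals of the PRMT7, PRMT8 and PRMT9 models include 0. The groups of H3K36 writers (without WHSC1 and WHSC1L1) and of H3K79 and H4K20 writers clear 0 only with the models.

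Over all 51 members the gene rows held 7845 reads in shLSD1 and 8235 in Blank (log2 ratio 0.013, -0.032 to 0.057). With the matched models they held 16058 in shLSD1 and 16467 in Blank (0.046, 0.015 to 0.078). Of 12 pairs of paralogs or of writers and erasers that were fixed, 5 gave an odds ratio from gene rows and 6 with matched models. The others had a side with too few reads or with no row under its symbol. No row carries the symbol KDM4C, KDM6A, KDM6B, EHMT2, PRMT1 or PRMT5, so their pairs were not measured. Rows without a symbol were not assigned to these genes.

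Genes that work with these enzymes were taken from lists of complex partners and cofactors. Of 19 partner subunits named, 14 were listed, 7 of them at 0 and 4 with at least 20 reads. WDR82, a subunit of the SETD1 complexes, had 1494 reads in shLSD1 and 1471 in Blank (log2 ratio 0.10, 0.00011 to 0.21), and RBBP7, a histone-binding subunit of PRC2, 340 in shLSD1 and 331 in Blank (0.12, -0.10 to 0.34). CLNS1A, a partner of PRMT5, and MTF2, a PRC2 accessory protein, had intervals that include 0. RCOR1, which holds LSD1 in the CoREST complex, had 3 reads in shLSD1 and 6 in Blank. Overlap with assembled models was not checked row by row for this list, the muscle genes or the lists below. Rows at 0 or near it may therefore not give the level of the gene.

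Of 16 enzymes of the methyl donor and of demethylase cofactors, 14 were listed, 4 of them at 0 and 6 with at least 20 reads. Of these 6, the interval lay above 0 for 1 and below 0 for 1, beside 12.9% and 15.4% of all rows. MAT1A, which makes S-adenosylmethionine, fell to 157 reads in shLSD1, against 289 in Blank (7.86 FPKM in shLSD1 and 13.6 in Blank, log2 ratio -0.80, -1.09 to -0.51). AHCYL1, a relative of the hydrolase of S-adenosylhomocysteine, had 1275 in shLSD1 and 1230 in Blank (0.13, 0.02 to 0.25). The sum of the list was 6918 in shLSD1 and 7470 in Blank (-0.028, -0.076 to 0.019).

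Of 14 further symbols of methylation enzymes, some of them older names of the same gene, 6 were listed and 3 had at least 20 reads. RIOX1, a JmjC hydroxylase also described as an H3K36 demethylase, had 718 in shLSD1 and 804 in Blank (log2 ratio -0.081, -0.23 to 0.066). SETDB2, an H3K9 methyltransferase, had 269 in shLSD1 and 294 in Blank (-0.045, -0.29 to 0.20). PHF2, a JmjC demethylase, had 29 in shLSD1 and 16 in Blank (0.92, 0.012 to 1.92). A model with a JmjC domain lay over PHF2 and was at 0 in both libraries, so the row may not give the level of the gene.

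Marker lists of the testis moved alongside these results, and their part in them was not tested. Over 11 germ cell genes listed, the reads summed to 441 in shLSD1 and 395 in Blank (log2 ratio 0.24, 0.042 to 0.44), with 1 gene, NANOG, at 0. ZBTB16 and NANOS3 held most of these reads, and the other 9 genes together ran the opposite way, with 47 reads in shLSD1 and 84 in Blank (-0.75, -1.30 to -0.22). Over 6 Sertoli genes, with AMH at 0, they summed to 2210 in shLSD1 and 1879 in Blank (0.32, 0.23 to 0.41), over 4 Leydig genes to 517 in shLSD1 and 696 in Blank (-0.35, -0.51 to -0.18), and over 7 peritubular and fibroblast genes to 5436 in shLSD1 and 6702 in Blank (-0.22, -0.27 to -0.17). CLDN11 held most reads of the Sertoli sum, with 1544 in shLSD1 and 1255 in Blank. DMRT1 also rose (0.29, 0.073 to 0.51), while the intervals of SOX9, FSHR and INHA include 0. CYP17A1 held most reads of the Leydig sum, with 380 in shLSD1 and 551 in Blank. The intervals of CYP11A1 (0.24, -0.17 to 0.65) and STAR (-0.54, -1.28 to 0.15) include 0. The peritubular and fibroblast sum follows LUM, which fell (-0.29, -0.35 to -0.23), while DES rose (0.35, 0.20 to 0.51), and COL1A2, COL3A1, DCN and THY1 were at 0. Blood and immune genes, with 258 in shLSD1 and 289 in Blank (-0.081, -0.33 to 0.17), and 16 proliferation genes, with 3574 in shLSD1 and 3775 in Blank (0.0036, -0.063 to 0.07), had intervals that include 0. Of the proliferation genes, 5 (TOP2A, PCNA, MCM2, AURKA and PLK1) were at 0. RRM2 rose (0.42, 0.13 to 0.71), and the intervals of the others with reads include 0.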

How the data were processed

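RNA-seq was analysed for 2 libraries, 1 per group. The authors deposited counts of reads per gene as whole numbers without normalization, and FPKM values, which divide the counts by gene length and library total. Submitters' processing notes name Bowtie 0.12.2 and the mouse builds mm8 and mm9, which cannot describe chicken gene IDs, so the aligner and build are not given in the sources used here. The authors' own comparison table (adjusted counts, log2 fold changes and p-values) was not used. In the tables, 4 value columns headed Control and MLL2_sh matched no sample and were left out.

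Counts were divided by the library totals, and log2 ratios of shLSD1 to Blank were taken with a prior count of 0.5. Clopper-Pearson 95% intervals of the reads, Wilson intervals of shares, exact Poisson intervals of levels and exact conditional odds ratios were computed. They cover counting error only, as there was 1 library per group. PCR copies are counted as reads, so the intervals may be too narrow even for counting error. A change is named where the interval excludes 0. No p-value was computed. The calculation was tested on simulated data with 200 changed genes.

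The members and lists were chosen with earlier results of these data known. Reads are given for every member with at least 20 reads and every member at 0 is named. Ratios are given for members whose interval excludes 0, the 5 highest by FPKM, the largest rise and fall of each role group, KDM1A and the fixed pairs. Symbols of the lists were also matched, ignoring case, through a RefSeq table of GRCg7b, used for names only. Names without a row, such as KMT2B, KMT2D, EHMT2, KDM6A, KDM6B, PRMT1 and PRMT5, were not analysed here. No sequences are printed.

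Alternatives were TMM, DESeq2's size factors, upper-quartile scaling, totals without the 20 most abundant genes, other minimums and thresholds, a prior count of 5, FPKM with a pseudocount of 0.1 or 1, and reads of overlapping models added. Software was Python 3.11.15 with scipy 1.17.1, pandas 2.3.3, numpy 2.4.6 and matplotlib 3.10.9, and, for the scalings, edgeR 4.0.16 and DESeq2 1.42.0 in R 4.3.3.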

Additional observations from a re-analysis of the deposited data

How the results depend on the processing

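With 1 library per group no spread between replicates is known, and most gene rows under 20 reads cannot be placed. No paired analysis was possible because shLSD1 and Blank have 1 library each. Adding the reads of models with the same domain and leaving out JMJD1C were alternatives chosen after seeing the data.

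The median log2 ratio of the members was -0.13 and was -0.039 once the reads of models with the same domain were added. No member was at least 1.5-fold higher, but 1 was with upper-quartile scaling, 1 with reads of models of reciprocal overlap, 1 with reads of models of the same domain, and 2 at a minimum of 5 reads. The count at least 1.5-fold lower was 1, and 2 with DESeq2's size factors or a minimum of 5 reads, and 0 with FPKM and a pseudocount of 1 or a 2-fold threshold. Intervals above 0 numbered 2, but 1 with DESeq2's size factors and 5 with models of the same domain, where 38 members had at least 20 reads. The shares of all rows at these alternative settings were not computed, so these counts are not read as results about the members. Members at 0 numbered 19, but 5 with models of the same domain and 3 with any same-strand model.

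Among role groups, 68 of 80 alternative values kept direction and side. With DESeq2's size factors the COMPASS core, whose gene-row reads are all those of ASH2L, was -0.14 with its interval below 0. The H3K4 writers were then 0.13 with an interval that includes 0. The SMYD family and the H3K79 and H4K20 writers turned to -0.011. With models of reciprocal overlap the H3K4 writers were 0.12, again including 0, and the H3K79 and H4K20 writers 0.57, clear of it. With models of the same domain the H3K4 writers were 0.055, the other SETD and JMJD proteins 0.011 (turned), the H3K79 and H4K20 writers 0.33 and the H3K36 writers 0.13. The last 2 then excluded 0. Without JMJD1C the H3K9 erasers were 0.66 with an interval that includes 0, and -0.10 with models of the same domain added.

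Among 38 single members or loci, 186 of 194 alternative values kept direction and side, with the same limits. KDM2A turned to -0.0038 with models of the same domain, PRMT7 to -0.0058 with DESeq2's size factors, and KDM5B to 0.005 with TMM and 0.02 with upper-quartile scaling, each near 0 in every version. KMT2A no longer excluded 0 with DESeq2's size factors, where ASH2L did, and SMYD5 and SMYD3 excluded it with upper-quartile scaling. The cause of these differences was not tested beyond the added reads and the scaling itself.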

Other observations

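Assembled models with a SET or JmjC domain also lay over genes outside the chosen symbols. Of 20 models with a SET domain, 15 were matched to members and 4 of the other 5 had at least 20 reads, and of 10 with a JmjC domain 6 were matched and 2 of the other 4 had as many. The model over PRDM11, a SET domain protein of the PRDM family, had 672 reads in shLSD1 and 570 in Blank (log2 ratio 0.32, 0.16 to 0.48). Models over WHSC1 and WHSC1L1, the NSD family paralogs of NSD1, had 577 reads in shLSD1 and 651 in Blank (-0.091, -0.26 to 0.072) and 438 in shLSD1 and 538 in Blank (-0.21, -0.40 to -0.029). The ratio of NSD1 lay above 0 and that of WHSC1L1 below it. JARID2, a PRC2 subunit with an inactive JmjC domain, had a model with 125 reads in shLSD1 and 106 in Blank (0.32, -0.065 to 0.71). Other models lay over genes without a symbol. On chromosome 1, a model with a JmjC domain had 88 reads in shLSD1 and 95 in Blank (-0.027, -0.46 to 0.41). On chromosome 25, a model with a SET domain and a methyl-CpG binding domain had 20 in shLSD1 and 33 in Blank (-0.63, -1.52 to 0.20). These models share their strand with other annotated rows, and the counts cover counting error only.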
